A study of Bos grunniens with 6 samples.

Results

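The genes described here carry symbols of the vesicle traffic machinery in the m6A peak list of cattle-yak testis. They were chosen by symbol alone, as genes whose listed symbol begins with RAB and a digit, RABGAP, RABEP, TBC1D, DENND, EXOC, TRAPPC, VAMP, GOLG, MON, ARFGEF or ARFGAP, or is a numbered VPS, SNX, COG, SEC, STX, ARF or AP1 to AP4 symbol. The rule took 201 of the 8986 gene identifiers with a peak (2.24%) and 352 of the 16186 listed peaks (2.17%). The samples were testis tissue obtained by castration from 3 healthy animals of 5 years of age, named TES5, TES6 and TES7. The cattle-yak is the hybrid of cattle and yak. The paper describes male cattle-yaks as sterile, and tissue sections in it showed mainly spermatogonia, with few spermatocytes. Each animal gave 1 library of RNA pulled down with an antibody against m6A (IP) and 1 library of the same RNA before the pull-down (input), 6 libraries in all. There was 1 condition and no untreated or parental group among these libraries, so no difference between groups could be tested. The peak list was made for the 3 animals together and holds no score or value per animal, and expression was given as FPKM (reads per length of transcript and per library size) in the 3 input libraries, without the number of reads behind each value. The tissue is a mixture of cell types, so fewer cells of a type and less RNA per cell cannot be told apart in these values. Of 46 marker genes of testis cell types, 23 had a peak and hence a symbol in the files, and 22 of those reached 1 FPKM in each animal, among them WT1 and SOX9 of Sertoli cells, STAR of Leydig cells and SYCP3 of spermatocytes.

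Rab proteins are small GTPases that sit on the membranes of single organelles and vesicles when they hold GTP. Guanine nucleotide exchange factors (GEFs, such as the DENND proteins) load them with GTP, and GTPase-activating proteins (GAPs, such as the TBC1D proteins) return them to the inactive state. Active Rab proteins recruit tethers that hold a vesicle at its target, and SNARE proteins then fuse the membranes. Coats (COPII and the AP adaptor complexes) form the vesicles, while golgins, ARF GTPases, the retromer and the sorting nexins serve the Golgi apparatus and the endosomes. In the testis this machinery builds the acrosome, the secretory vesicle of the sperm head, and carries membrane to dividing germ cells. m6A is a methylated adenosine in mRNA, laid down mostly near stop codons and in long exons, and it is read by proteins that act on mRNA splicing, translation and decay.

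The listed symbol was set against the other annotation of the same identifier. GO terms that name vesicle traffic, small GTPases or the organelles involved were found for 113 of the 201 identifiers (56.2%). The same keywords took 15.4% of all identifiers with a peak. For 36 identifiers, or 19.0% of the 189 with any GO term, the terms named RNA-directed DNA polymerase activity, the enzyme of retroelements, and this share was 16.3% over all identifiers with a peak and a GO term. A further 16 carried only general terms such as nucleus or cytoplasm, 12 carried none, and 24 carried terms of other products. The 201 identifiers bear 177 symbols, since 20 symbols were given to more than 1 identifier (44 identifiers in all). In 13 of those 20 symbols exactly 1 identifier had a traffic term, in 1 symbol (DENND2A) both had, and in 6 symbols (RAB3A, RABEP1, SEC13, SNX13, STX7 and TBC1D5) none had. Several of the other identifiers had the terms of a gene that lies within 2 named protein-coding genes of the labelled gene in the RefSeq gene order of the yak assembly Bosgru_T2T1.0. The second identifier labelled DENND4C (ENSBGRG00000001942) had terms of the small ribosomal subunit, and RPS6 is the neighbour of DENND4C. The identifier labelled SEC31B (ENSBGRG00000024877) had terms of mitochondrial complex I, and NDUFB8 is the neighbour of SEC31B. Likewise RAB10 (ENSBGRG00000013558) had kinesin terms and KIF3C as neighbour, RAB7A (ENSBGRG00000013189) had nucleosome terms and H1-10 as neighbour, and RAB20 (ENSBGRG00000008539) had terms of NAD(P)H-hydrate dehydratase and NAXD nearby. A term of another product does not by itself make the symbol wrong, since the terms may be those of a neighbour while the peak lies on the labelled gene. COG5, for instance, carried receptor terms on a span of 301549 bp, and the receptor gene GPR22 is next to COG5. VPS72 (a chromatin protein), SEC62 and SEC63 (parts of the translocon of the endoplasmic reticulum), SEC14L1 and RAB5IF match the rule by their letters only. Peak number, its correlations, class shares, widths, expression and median variation are therefore also given over the 113 identifiers with a traffic term. That set was chosen after the terms were seen. It is not free of other products, since broad terms such as GTPase activity counted and SEC14L1 is in it. Counts by functional group are over all members. Traffic terms were found for 16 of 29 Rab GTPases, 7 of 18 sorting nexins, 5 of 15 SNAREs and 4 of 4 golgins.

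The number of peaks per traffic gene was close to that of all genes with a peak. Of the 201 identifiers, 92 (45.8%, 95% Wilson interval 39.03% to 52.7%) had 2 or more peaks, against 46.0% of all identifiers with a peak. The mean number was 1.75 peaks per identifier, against 1.80 over all, and the median was 1 in both. A single peak was listed for 109 identifiers, 2 peaks for 53, 3 for 26, 4 for 9, 5 for 2, and 6 and 7 for 1 each. Among the 113 identifiers with a traffic term, 42.5% had 2 or more peaks, with a mean of 1.78. These intervals reflect counting error alone.

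**Figure D1:**
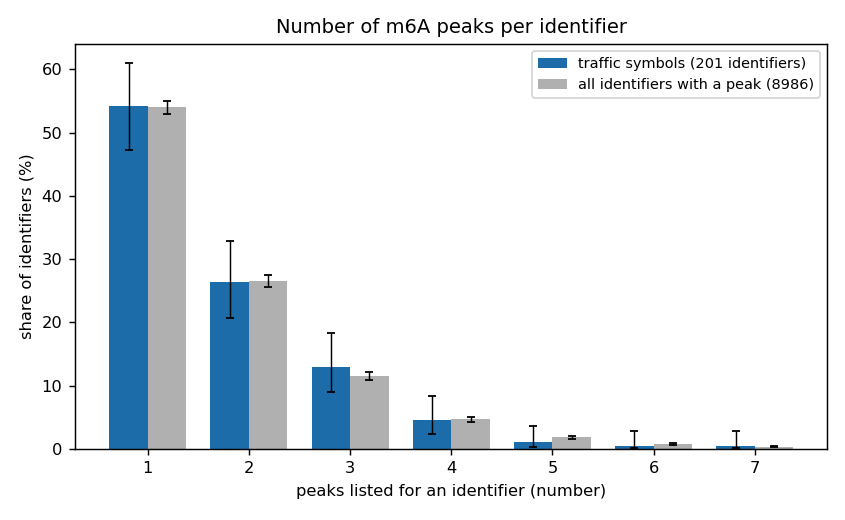
Share of identifiers (%) by the number of peaks listed for them, for the 201 identifiers with a traffic symbol and for all 8986 identifiers with a peak. Bars are shares and error bars are 95% Wilson intervals, identifiers with more than 7 peaks are not drawn, and the shares over all identifiers lie within the members' intervals at each number of peaks drawn.

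Peak number was more strongly rank-correlated with the genomic length of a gene than with its expression. Across the 201 identifiers, Spearman's rho between peak number and the span of the listed transcript was 0.42, and it was 0.29 over all 8986 identifiers. Between peak number and mean FPKM rho was -0.01 over the 196 members above 0. Over the 113 identifiers with a traffic term, rho was 0.40 with span and -0.15 with mean FPKM. These are descriptions across genes that share the same libraries and 1 peak list. Of the 67 members with the shortest spans (median 8207 bp) 14 (20.9%) had 2 or more peaks. Of the 67 in the middle (median 37916 bp) 34 (50.7%) had, and of the 67 with the longest spans 44 (65.7%). Over all identifiers with a peak, split by span in the same way, the shares were 30.2%, 47.8% and 59.8%. The members were also longer than the rest, with a median span of 37916 bp against 28394 bp over all identifiers with a peak.

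The members with the most peaks were VPS13D, GOLGB1, SEC16A and RAB11FIP1. VPS13D, a bridge-like lipid transfer protein of mitochondria and the endoplasmic reticulum, had 7 peaks on identifier ENSBGRG00000007620 (chromosome 14, build LU_Bosgru_v3.0). Of these, 6 lay in exons 8 to 21 of 71, between positions 38164703 and 38188523, and the other lay in the 3' UTR from 37909833 to 37912632, near the far end of the gene. GOLGB1 (giantin), a golgin that tethers vesicles to the Golgi, had 6 peaks, all of the exon class, on chromosome 1, and 2 of them lay in exon 14 and 2 in exon 12 of 23. SEC16A, the scaffold of COPII exit sites, had 5 exon peaks on chromosome 9, and 3 of these lay in exons 1 and 3 at the start of the gene. RAB11FIP1, an effector of Rab11 in recycling endosomes, had 3 exon peaks and 2 peaks in the 3' UTR on chromosome 28. The 9 identifiers with 4 peaks were ARFGAP3, DENND3, GOLGA3, MON2, SEC13, SEC23IP, SNX27, TBC1D14 and VPS13C. Among them SEC13 (ENSBGRG00000025573, with retroelement terms) was the member whose 4 peaks all lay in the 3' UTR class. On some members peaks lay close together. When peaks of a gene less than 100 bp apart were joined, 12 of the 92 members with 2 or more peaks lost at least 1. GOLGB1 then kept 5, SEC16A 4, GOLGA3 3 and ARFGAP3 2, while VPS13D kept 7 and RAB11FIP1 kept 5. The share over all identifiers is not given here, so close peaks are not read as a trait of these genes.

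**Figure D2:**
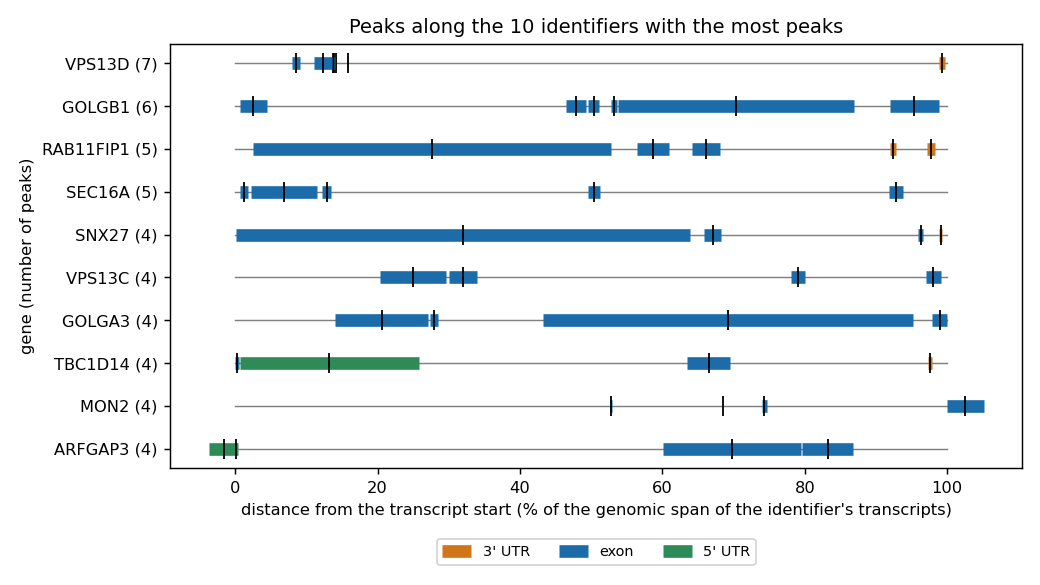
Position of the peaks along the 10 identifiers with the most peaks (ties at 4 peaks taken by identifier), as distance from the transcript start in % of the genomic span of the identifier's listed transcripts. Coloured bars are peaks by region class, black ticks are their centres and the grey line is the span with introns, and the 6 exon peaks of VPS13D lie together in the first part of the gene while those of GOLGB1 and SEC16A are spread along it.

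The exon class held most peaks of the traffic genes. Of the 352 peaks, 245 (69.6%, interval 64.6% to 74.2%) were in the exon class, 81 (23.0%, 18.9% to 27.7%) in the 3' UTR class and 26 (7.39%, 5.09% to 10.6%) in the 5' UTR class. Over all 16186 peaks the shares were 70.3%, 20.8% and 8.82%. A 3' UTR peak was listed for 73 of the 201 identifiers (36.3%), against 32.1% of all identifiers with a peak. A 5' UTR peak was listed for 25 (12.4%), against 14.0% of all. SNX13, TBC1D4, TBC1D14 and EXOC3 had peaks in all 3 classes (1.99% of members, against 1.87% of all identifiers with a peak). Exon and 3' UTR peaks occurred together in 38 members (18.9%), against 14.3% of all identifiers with a peak. Another 33 (16.4%) had 3' UTR peaks only, close to the 15.7% over all. Among these 33 was TBC1D20, a GAP whose loss causes male infertility in mice. Both of its peaks lay next to each other at the end of the gene. Among exon peaks on transcripts of 3 or more exons, 17 of 223 (7.62%) were in the last exon and 25 (11.2%) in the first, against 11.6% and 12.5% over all such peaks. Over the 113 identifiers with a traffic term the class shares were 70.1%, 22.4% and 7.46%.

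**Figure D3:**
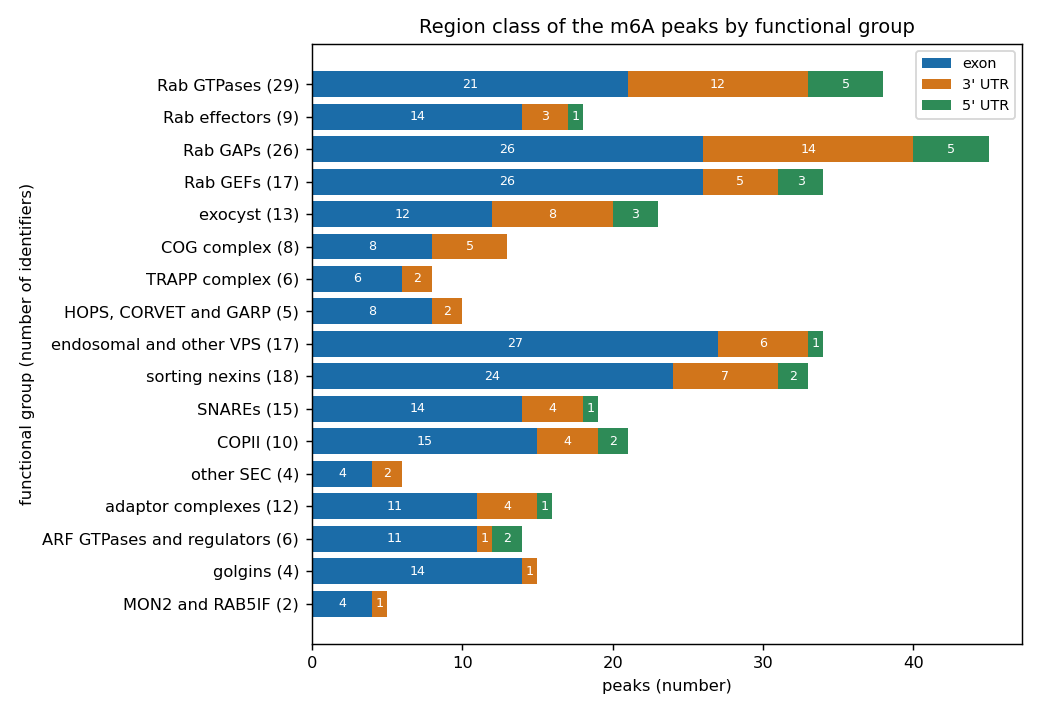
Number of peaks by region class in each functional group, with the number of identifiers of the group in brackets. Stacked bars are counts of exon, 3' UTR and 5' UTR peaks. The 3' UTR class holds 14 of 45 peaks of the Rab GAPs, 12 of 38 of the Rab GTPases and 1 of 15 of the golgins, against 20.8% of all peaks. These counts are small and differences between groups were not tested. Traffic terms were found for 15 of 26, 16 of 29 and 4 of 4 identifiers of these groups.

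The listed width of a peak is its extent on the genome, in which introns are counted. The class of a wide peak need not give its position. The 5' UTR class peaks of RAB10 (ENSBGRG00000013498) and RAB20 (ENSBGRG00000008497) covered 99.2% and 97.4% of the spans. The median width of the members' peaks was 1822 bp, with quartiles of 396 bp and 6500 bp, and the median over all peaks was 1022 bp. Over the 201 peaks of identifiers with a traffic term the median was 1136 bp. Widths of at most 1000 bp were listed for 155 peaks (44.0%, 38.9% to 49.3%), against 49.8% of all. By class the medians were 2763 bp for exon peaks, 499 bp for 3' UTR peaks and 3695 bp for 5' UTR peaks, against 1333, 447 and 1985 bp over all peaks of these classes. Among the 113 identifiers with a traffic term the medians were 1962, 499 and 4074 bp. Among the members' peaks of at most 1000 bp, the 3' UTR class made up 35.5% and the exon class 58.7%, against 28.1% and 64.4% over all such peaks. Spearman's rho between width and span was 0.29 over the 352 peaks, as a description across peaks of 1 list.

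**Figure D4:**
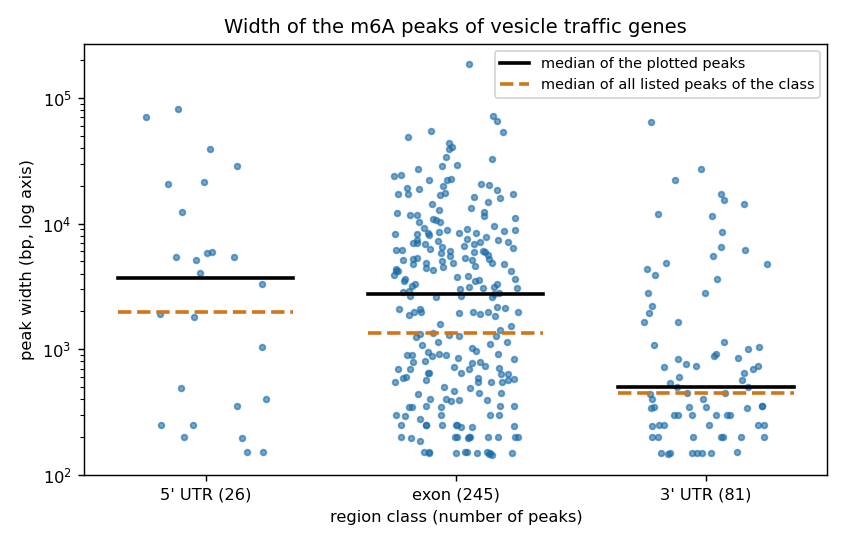
Width of the 352 peaks (bp, log axis) by region class, 1 point per peak, spread sideways for visibility. Black lines are the medians of these peaks (3695 bp in the 5' UTR, 2763 bp in exons and 499 bp in the 3' UTR) and dashed lines the medians of all listed peaks of the class, and the widest points lie far above the medians in each class.

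The widest peaks were far wider than the median of their class. The widest, 187910 bp on chromosome 19 (39046847 to 39234756), was assigned to an identifier labelled STX8 whose transcript spans 1648 bp, on an exon of another identifier. Next came TBC1D15 with 81768 bp, VAMP7 with 71504 bp, RAB10 (ENSBGRG00000013498) with 70035 bp of a 70612 bp span, and EXOC4 with 65862 bp of an 893621 bp span. In all, 5 members had a peak that contained their whole listed transcript, namely STX8, RAB31, RABEP1 (ENSBGRG00000026449), SNX9 and VPS37A. Of these members, 4 were listed at 0 FPKM in all libraries. Such peaks were 1.42% of the members' peaks and 0.859% of all peaks. Of the 245 exon peaks, 5 were placed on an exon of another gene identifier, and 2 (on VPS8 and VPS54) on an exon of a transcript listed without a gene. Together these were 2.86% of the members' exon peaks, against 4.83% over all exon peaks. The identifier whose exon held the RAB31 peak stood at 52.7, 50.3 and 45.8 FPKM in TES5, TES6 and TES7, against 0 for RAB31. The identifier whose exon held the STX8 peak stood at 4.79, 4.52 and 5.22 FPKM, that of the VPS37A peak at 6.65, 5.499 and 6.45, and that of the TBC1D30 peak below 1 in each animal. The RABEP1 peak of 29209 bp lay on an exon of the other RABEP1 identifier, so that the label was the same. For the peaks of RAB31, STX8, TBC1D30 and VPS37A the labelled gene and the gene whose exon was hit were therefore different identifiers.

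Traffic genes were expressed at moderate levels in all 3 animals. At least 1 FPKM in every library was listed for 184 of the 201 identifiers (91.5%, 86.9% to 94.7%), against 84.9% of all identifiers with a peak, and for 97.3% of those with a traffic term. The median of the mean FPKM was 9.62, with quartiles of 4.91 and 18.5, against a median of 7.36 over all identifiers with a peak. The members' median was 9.34 in TES5, 9.85 in TES6 and 9.47 in TES7. A mean FPKM of at least 10 was listed for 96 members (47.8%), against 38.8% of all identifiers with a peak. A mean of at least 50 was listed for 10 (4.98%), against 4.85% of all. In 16 of the 17 functional groups the median of the group lay above that of all identifiers with a peak, the SNAREs (5.77) being the exception. Values of 0 in all libraries were listed for 5 members (2.49%), against 3.26% of all identifiers with a peak. These were RAB31 (ENSBGRG00000025938), RABEP1 (ENSBGRG00000026449), SNX30, SNX9 and VPS37A, none of which had a traffic term. A further 12 were below 1 in at least 1 library but not at 0 throughout.

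**Figure D5:**
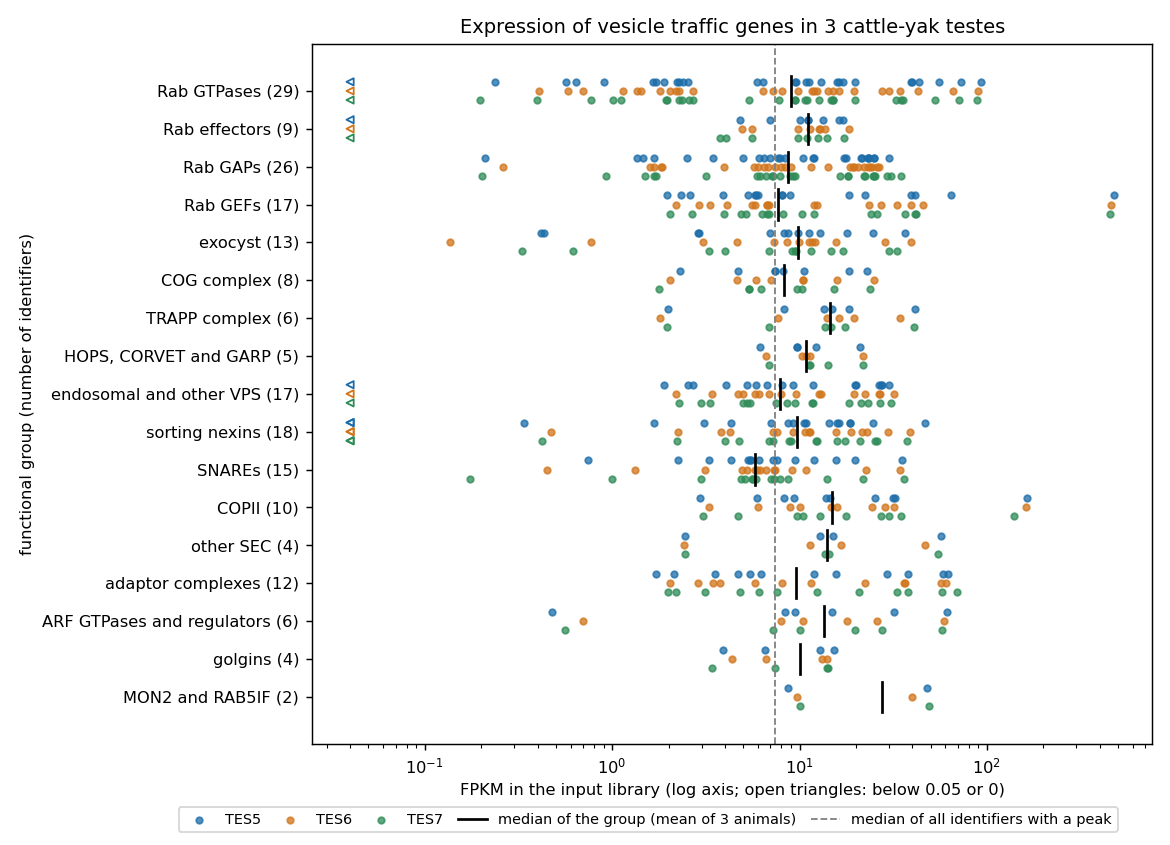
FPKM of each of the 201 identifiers in the input library of each animal (log axis), by functional group, with the number of identifiers in brackets. Points are single libraries, open triangles at the left are values listed at 0, black lines are group medians of the mean over 3 animals, the dashed line is the median of all identifiers with a peak (7.36), and the 2 identifiers furthest to the right are those labelled DENND4C and SEC31B.

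The highest values belonged to identifiers whose terms name other products. The second DENND4C identifier stood at 478, 457 and 454 FPKM in TES5, TES6 and TES7 (463 ± 12.9, mean ± SD, n = 3), and the SEC31B identifier at 163, 161 and 139 (154 ± 13.3). The first DENND4C identifier (ENSBGRG00000001896), whose terms name Rab exchange activity, stood at 18.5, 27.2 and 26.0. The 2 identifiers that share the label DENND4C thus did not overlap in any animal. Among members with a traffic term, the highest were RAB12, RAB10, AP3D1, AP2M1 and ARF6, described with their groups below.

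Rab GTPases were 29 identifiers with 23 symbols and 38 peaks. Of the 29, 8 had 2 or more peaks, with a mean of 1.31 per identifier, and 12 of the 38 peaks were in the 3' UTR class. RAB12, which acts in lysosomal degradation of receptors, had 1 exon peak and the FPKM values 92.9, 90.1 and 88.1 (90.4 ± 2.40). RAB10, which acts in Golgi to membrane transport and endosomal recycling, followed with 73.0, 65.8 and 71.4 (70.1 ± 3.79). Its only peak, of the 5' UTR class, covered 99.2% of the span, so the class does not locate it. The ranges of RAB12 and RAB10 did not overlap. RAB7A (ENSBGRG00000013027), the Rab of late endosomes and lysosomes, had 1 narrow peak of 301 bp in the 3' UTR and 55.6, 42.7 and 52.7 FPKM (50.3 ± 6.77). RAB1A, which acts between the endoplasmic reticulum and the Golgi, also had a single 3' UTR peak and reached 43.4, 34.5 and 35.8 (37.9 ± 4.78). These levels overlapped between the genes only in that TES5 of RAB1A exceeded TES6 of RAB7A. RAB8B, which takes part in junction dynamics of Sertoli cells, had 1 exon and 1 3' UTR peak and 6.41, 7.18 and 7.77 FPKM. Its identifier carried retroelement terms and no traffic term. RAB8A (ENSBGRG00000010945) had 1 exon peak and a mean of 15.5 ± 0.71, above RAB8B in every animal.

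RAB3A, known for its part in acrosomal exocytosis, could not be read from these files with confidence. Its label was given to 3 identifiers on chromosome 8 and none had a traffic term. ENSBGRG00000026238, with retroelement terms, had 3 peaks (1 exon, 2 in the 3' UTR) and 39.2, 29.9 and 34.6 FPKM. ENSBGRG00000026196, with phosphodiesterase terms, and ENSBGRG00000026247, with nucleosome terms, had 1 peak each and mean FPKM values of 0.35 and 1.21. RAB6A, a Rab of the Golgi, had 1 identifier with terms of a quinone reductase, 1 exon peak of 32788 bp and 11.2, 16.2 and 12.7 FPKM. RAB5A, RAB11A, RAB14, RAB21, RAB2A, RAB27A and RAB27B, Rab proteins of early, recycling and secretory compartments, had no peak under those symbols, and no FPKM could be matched to them.

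Rab effectors and adaptors were 9 identifiers with 18 peaks, and 14 of the peaks were in exons. RAB11FIP1 had 16.3, 18.3 and 17.4 FPKM (17.3 ± 1.00), the highest of the group. RAB11FIP2 (3 peaks) stood at 10.3 ± 0.61 and RAB11FIP5 (3 peaks) at 11.1 ± 1.45, and their ranges overlapped. RABEP2, a partner of Rab5 on early endosomes, had 2 exon peaks and varied little, with 13.4, 13.7 and 14.0. RABEPK, named for its binding to Rab9, had 1 narrow exon peak of 147 bp and the values 17.1, 12.8 and 3.79, the largest spread of any member with a mean of at least 10.

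Rab GAPs, the inactivating enzymes, were 26 identifiers with 45 peaks, and 14 of the 26 had 2 or more peaks. RAB3GAP1, a subunit of the Rab3 GAP complex, was the highest with 30.0, 26.7 and 34.8 FPKM (30.5 ± 4.09). TBC1D23, a golgin-binding member, had 3 peaks and 21.4, 22.1 and 22.3 (22.0 ± 0.48), and both ranges stood apart. TBC1D20 had 17.7, 18.6 and 18.2 (18.2 ± 0.47), below TBC1D23 in each animal. TBC1D14, a regulator of autophagy, had on ENSBGRG00000006353 peaks in all 3 classes and 9.23 ± 1.03. Another identifier with that label (ENSBGRG00000006635) had 1 peak, a mean of 26.7 and terms of histone acetylation, and TADA2B is a neighbour of TBC1D14. TBC1D15 had 8.37, 6.77 and 7.10 FPKM and 1 of the widest peaks.

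Rab GEFs were 17 identifiers with 34 peaks, 26 of them in exons, and 9 of the 17 had 2 or more peaks. DENND3, an exchange factor for RAB12, had 4 exon peaks, which became 3 when close peaks were joined, and 8.03, 6.71 and 8.18 FPKM (7.64 ± 0.81). DENND1A, an exchange factor for Rab35, had 3 exon peaks, the widest of 53145 bp, and 6.49 ± 0.63. DENND2B (ENSBGRG00000007364) had 1 exon peak of 16339 bp and 22.3, 23.4 and 24.0 FPKM, above both others in every animal. DENND2A was given to 2 identifiers, at 5.53 ± 0.34 (ENSBGRG00000000595) and at 50.4 ± 12.2 (ENSBGRG00000000642). Terms of the latter name a GTPase rather than an exchange factor, and RAB19 is a neighbour of DENND2A.

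Tethering complexes had 32 identifiers among them. The exocyst, which ties secretory vesicles to the plasma membrane, had 13 identifiers and 23 peaks, 8 of them in the 3' UTR class. EXOC5 and EXOC6 had 3 peaks each, 2 in exons and 1 in the 3' UTR, and means of 11.9 ± 0.82 and 7.04 ± 0.22. EXOC2 had 24.8, 28.7 and 30.1 FPKM (27.9 ± 2.75), above both. EXOC1, a gene needed for spermatogenesis in mice, had 1 peak in the 3' UTR and 8.24, 11.6 and 9.47 FPKM. EXOC8, a gene of a single exon here, had 2 neighbouring exon peaks that joined into 1, and 8.80 ± 0.25. The identifier ENSBGRG00000023228, labelled EXOC3L4, stood at 36.3 ± 3.09 on a span of 603 bp and had GTPase terms but no exocyst term.

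The COG complex, which tethers vesicles within the Golgi, had 8 identifiers and 13 peaks, none in the 5' UTR class. COG6 had 1 exon and 1 3' UTR peak and 18.4, 15.8 and 15.3 FPKM, and COG3 had the same classes and 8.13, 10.4 and 10.3, lower in each animal. COG1 was given to 3 neighbouring identifiers at means of 23.9, 4.91 and 2.04, and of these ENSBGRG00000026513 at 23.9 ± 1.08 carried the Golgi terms. The TRAPP complex had 6 identifiers and 8 peaks. TRAPPC2L (41.5, 34.2 and 40.9 FPKM, 38.8 ± 4.04) had 1 peak of 147 bp in the 3' UTR. TRAPPC8 (13.7 ± 0.28), TRAPPC9 (15.3 ± 0.88) and TRAPPC11 (18.5 ± 1.04) were lower, and TRAPPC9 had 1 exon peak of 17099 bp. HOPS, CORVET and GARP subunits, which serve endosomes, lysosomes and the trans-Golgi network, had 5 identifiers and 10 peaks. VPS54, the GARP subunit mutated in the wobbler mouse with its defect of sperm head formation, had 3 peaks and 6.13, 6.67 and 6.84 FPKM (6.54 ± 0.37). Of its 3 peaks, 1 lay outside its listed transcript. VPS41 had 3 peaks and 12.4 ± 1.66, and VPS11 had 1 peak of 150 bp and 21.1, 21.8 and 21.7, higher than both.

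Endosomal VPS genes and sorting nexins together held 35 identifiers and 67 peaks. The VPS13 family of lipid transfer proteins had 7 peaks on VPS13D, 4 on VPS13C and 3 on VPS13A. VPS13D had on the identifier with traffic terms 5.87, 7.99 and 7.45 FPKM (7.10 ± 1.10), VPS13C 4.04, 5.75 and 5.47 (5.09 ± 0.92) and VPS13A 2.55, 3.42 and 2.99 (2.99 ± 0.43). TES5 was the lowest animal in all 3 genes. VPS26B of the retromer and VPS4B, the ATPase of the ESCRT machinery, had 1 peak each at means of 26.9 ± 0.55 and 28.1 ± 2.20. SNX1, a retromer-associated nexin, was the highest nexin with 46.7, 38.98 and 37.3 (41.02 ± 5.03) and 2 exon peaks. Its identifier carried retroelement terms and no traffic term. SNX27, the retromer adaptor that recycles receptors, had 4 peaks and 15.8, 15.7 and 17.6, and its widest peak of 54404 bp covered most of the gene. SNX11 had a peak of 150 bp in the 3' UTR and 26.5 ± 2.72.

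The golgins had the most peaks per identifier of the 17 groups. The 4 golgins (GOLGA1, GOLGA3, GOLGA5 and GOLGB1) had 15 peaks, a mean of 3.75, and 14 were exon peaks. GOLGA3, whose disruption causes male infertility in mice, had 4 exon peaks and 12.9, 13.2 and 14.0 FPKM (13.4 ± 0.58). GOLGB1 had 6.54, 6.65 and 7.41 (6.87 ± 0.47), lower in each animal. COPII genes had 10 identifiers and 21 peaks. SEC23IP, a partner of SEC23 whose loss gives round-headed sperm in mice, had 4 exon peaks and 32.1, 32.0 and 34.9 FPKM. This was above SEC16A with 14.5, 15.9 and 17.8 (16.1 ± 1.68). The SEC23IP identifier carried retroelement terms and no traffic term. The adaptor complexes AP1 to AP4 had 12 identifiers and 16 peaks, a mean of 1.33. AP3D1 (58.4, 56.7 and 69.3 FPKM, 61.5 ± 6.87) and AP2M1 (62.2, 60.7 and 57.8, 60.2 ± 2.27) had 1 exon peak each and overlapped in level. ARF6, a GTPase of the plasma membrane with a single 528 bp exon in the listed transcript, had 1 peak of 384 bp and 61.2, 59.3 and 57.7 (59.4 ± 1.77), which overlapped with both. AP3B1 had 2 wide exon peaks and 15.7, 22.3 and 20.7. ARFGAP3 had 4 peaks and 28.4 ± 3.05, and its identifier carried terms of a histone deacetylase complex. ARFGEF3 had 3 narrow exon peaks at an FPKM of 0.48, 0.70 and 0.56, so peaks were listed for a gene close to the lower end of the range. MON2, a Golgi relative of the ARF exchange factors, had 4 exon peaks and 9.48 ± 0.74.

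SNAREs, the fusion proteins, were 15 identifiers with 19 peaks, a mean of 1.27, and 3 of the 15 had 2 or more peaks. STX12, a syntaxin of early endosomes, was the highest with 35.1, 34.2 and 35.9 FPKM (35.1 ± 0.87). STX6 of the trans-Golgi network followed with 19.7, 22.7 and 21.9, and the ranges stood apart. STX2, needed in mice for the intercellular bridges of spermatocytes, had 1 exon peak of 4846 bp in exon 8 of 10 and 5.28, 5.93 and 4.87 FPKM (5.36 ± 0.53). STX3 had 3 peaks and 12.0, 9.12 and 7.27. VAMP7 had 6.09, 6.66 and 7.07 and a single wide exon peak.

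The 3 animals varied little in these genes. Among the 184 members that reached 1 FPKM in every library, the median coefficient of variation was 9.69%, against 11.6% over all such identifiers with a peak. It was 9.16% over the 110 of them with a traffic term. Without TES5 the members' median was 5.88%, but it rests on 2 animals and cannot be set against the 9.69% from 3. A coefficient from 2 values tends to be lower, and the value without TES5 over all identifiers is not given here. In 14 of the 184 (7.61%) the highest animal was at least 1.5 times the lowest, against 17.8% of all identifiers with a peak and that FPKM. TES5 was the highest animal in 10 of these 14, and in 606 of the 1357 over all. TES5, TES6 and TES7 were highest in 62, 59 and 63 of the 184 members. The members with the largest coefficients at a mean of at least 10 were RABEPK (60.5%), RAB20 (ENSBGRG00000008497, 30.8%), VPS72 (29.7%), DENND2A (ENSBGRG00000000642, 24.2%) and RAB9A (22.0%). RAB20, which acts in phagosome maturation, had 17.1, 11.7 and 9.43 FPKM in TES5, TES6 and TES7. VPS72 had 19.8, 12.7 and 11.8, and DENND2A 64.2, 45.5 and 41.4. In RABEPK, RAB20, VPS72 and DENND2A alike, TES5 was highest and TES7 lowest. RAB9A, listed on chromosome Y, ran the other way with 9.41, 12.4 and 14.8. Germ cell markers differed between the animals too. The 4 spermatocyte markers with a peak summed to 53.7, 39.3 and 39.2 FPKM in TES5, TES6 and TES7, and CCNA1 was at 8.36, 5.57 and 2.83. CCNA1 was the 1 of the 8 genes listed for spermatids that had a peak, so spermatids cannot be read from it. The 3 spermatogonial markers with a peak summed to 15.8, 18.9 and 24.2, lowest in TES5. Sertoli markers summed to 59.5, 74.6 and 72.5. The part of cell composition in the members' spread was not tested. The steadiest members at that level were RAB20 (ENSBGRG00000008539, the identifier with dehydratase terms, 1.09%), VPS11 (1.81%), TRAPPC8 (2.01%), VPS26B (2.06%) and AP1B1 (2.06%).

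Other genes of membrane traffic, outside the symbol rule, were counted in the same way. Of 118 such genes (among them coatomer, clathrin, dynamins, ESCRT-III, further GEFs and tethers), 75 had a peak, on 85 identifiers with 171 peaks. For comparison, 45.2% of all named protein-coding symbols had a peak. Of the 85, 45 (52.9%) had 2 or more peaks, above the 45.8% of the members and the 46.0% of all identifiers with a peak. By class, 122 of the peaks (71.3%) were in exons, 37 (21.6%) in the 3' UTR and 12 (7.02%) in the 5' UTR. Their median of the mean FPKM was 9.95, close to the 9.62 of the members. The most peaks were those of EEA1, a tether of early endosomes (7 exon peaks on ENSBGRG00000001904, with retroelement terms). GCC2, a trans-Golgi golgin, and LYST, a regulator of lysosomes, followed with 5 exon peaks each. Abundant genes of the list included the clathrin light chain CLTA (mean FPKM 88.1 ± 9.28), the clathrin heavy chain CLTC (66.0 ± 5.56) and the coatomer subunit ARCN1 (66.8 ± 2.92).

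Symbols without a listed peak were counted against RefSeq. Of 317 protein-coding symbols there that match the rule, 175 (55.2%) had a peak listed under that symbol, against 45.2% of all 16457 named protein-coding symbols. The share differed among groups, with 8 of 8 Rab effectors, 11 of 13 exocyst genes, 23 of 34 Rab GAPs, 14 of 21 Rab GEFs, 23 of 59 Rab GTPases, 13 of 26 SNAREs and 5 of 16 TRAPP genes. Of 35 genes listed for their roles in testis or acrosome, 22 had a peak under that symbol. ARF1, AP1M1, GOLGA4, TBC1D21, VAMP4, VPS13B and the 7 Rab genes named above had none. A missing symbol may also mean that the identifier carries another name in the list, since 2 member symbols were not in RefSeq and many labels were shared, and the FPKM of genes without a listed symbol could not be looked up. The relation of a listed peak to expression was therefore not examined for these genes.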

How the data were processed

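Per the labels, fragmented poly(A) RNA from 3 cattle-yak testes was pulled down with an anti-m6A antibody, and stranded IP and input libraries were sequenced paired-end. The authors trimmed reads with Trimmomatic, aligned them to LU_Bosgru_v3.0 with HISAT2 2.0.4, called peaks with MeTDiff and annotated them with ChIPseeker (Ensembl release 99). The deposited FPKM values cover 20953 genes in the 3 input libraries, from a program not given in the sources used here. They keep no read numbers, so no count model, interval or detection limit was applied. The peak list was counted as deposited, with 95% Wilson intervals for shares. No test was run, since there is 1 condition.

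The members, functional groups and lists were chosen with earlier results of these data known. The genes named were, per group, those with the most peaks, the highest FPKM and the widest peak, then the extremes over all members, shared symbols, members at 0 and a list of testis genes. TBC1D4 and EXOC3, VPS8, COG5 and RAB19 beside a label, and the leading genes outside the symbol rule were chosen after their values were seen. RefSeq (Bosgru_T2T1.0) gave symbols and neighbours only, and 175 of 177 member symbols matched. Alternatives were merged or unique peaks, other FPKM minima, rescaled libraries and each animal left out. Python 3.11.15, pandas 2.3.3 and SciPy 1.17.1 were used, and the counting was tested on simulated data. A gene of the list outside the symbol rule is not reported here.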

Additional observations from a re-analysis of the deposited data

How the results depend on the processing

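Counts and shares were recomputed under each alternative. Over identifiers with a GO term naming traffic, an alternative chosen after seeing the data, 201 peaks and 113 identifiers were left, the median peak width was 1136 bp instead of 1822 bp, 97.3% reached 1 FPKM in each animal, and the median FPKM was 11.7. By symbol instead of identifier, the share with 1 peak was 45.2% instead of 54.2%. Among the members' peaks of at most 1000 bp, the exon class held 58.7% and the 3' UTR class 35.5%, against 64.4% and 28.1% over all such peaks. A minimum FPKM of 5 left 69.7% of members, and the median FPKM was 10.4 over members with at least 1 in every library. Leaving out 1 animal gave median coefficients of variation of 5.88% to 8.67%, median FPKM values of 9.39 to 9.78, and shares that reached 1 FPKM throughout of 91.5% to 92.5%. The causes were not tested. Alternative values (rescaled libraries, 1 animal left out) were computed for the 113 named identifiers above 0. In 565 of 565 the mean FPKM moved by less than its SD. For an animal left out this outcome was fixed in advance, since dropping 1 value always moves a mean by less than the SD. The library factors lay close to 1 (0.958 to 1.031 by sum, 0.995 to 1.002 by median ratio), so rescaling could move a mean only little. No conclusion on robustness is drawn from this count. No paired analysis was possible because 1 list of peaks serves all animals, FPKM was given for input libraries alone, and no test was made. The lack of read numbers behind each FPKM value and of peak values per animal limits every statement above, and low FPKM values may rest on few reads.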
